A study of Mus musculus with 6 samples.

Results

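Collagen genes in mouse NIH/3T3 fibroblasts were compared between wild type cells and 8KR cells, which differ in RPB1, the catalytic subunit of RNA polymerase II. A gene was taken as a collagen gene if a probe set carried its symbol alone and the symbol read Col, a number, the letter a and a number. This gave 44 genes of the 17145 that were tested, and where a gene had more than 1 probe set, the brightest over the 6 arrays stood for it. They were grouped by the form their proteins build into 11 fibrillar collagens, 9 network collagens, 9 FACIT collagens, 6 chains of type VI and 9 others. NIH/3T3 is an immortalized line of mouse fibroblasts. The cells were stably transfected with HA-tagged mouse RPB1, either wild type or with every K7 residue, the lysine at the seventh position of a repeat in the C-terminal domain, changed to arginine (8KR), a change that keeps the positive charge and prevents acetylation. Both groups were grown in DMEM with bovine calf serum and α-amanitin, which blocks the cells' own RNA polymerase II, so both carried an introduced RPB1, and whether a group was 1 clone or a mixed population is not stated. Each group had 3 arrays of total RNA, named biological replicates in the labels, and the sources used here do not say whether the 3 came from separate transfections, so p-values measure the spread between these samples only.

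Collagens are secreted proteins of 3 chains wound into a triple helix, and fibroblasts are their main source in connective tissue. Fibrillar collagens form the cross-striated fibrils that carry tension, network collagens form sheets such as the basement membrane, and FACIT collagens sit on the surface of fibrils and link them to their surroundings. Type VI collagen forms beaded microfilaments near cells and is built from chains encoded by different genes. The comparison asked which of these genes differed when the K7 residues of RPB1 could not be acetylated.

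All 44 collagen genes had a group mean above a log2 intensity of 3.0, the background cutoff of the methods, so none was lost to that filter. Single values ranged from 3.50 to 10.40 on the log2 scale, and 7 genes had both group means below 4.49, the lowest median intensity of any array. Array medians ran from 4.49 to 4.54, and arrays of the same group correlated at 0.982 to 0.984, those of different groups at 0.975 to 0.978. Of 10 fibroblast markers that were tested, Pdgfra fell (log2 difference -0.75) and 9 did not pass, with Vim at means of 11.86 and 11.89 and Thy1 at 11.15 and 11.13 in wild type and 8KR cells. At an unadjusted p under 0.05 from limma 1 of the 10 lay higher, Fbln2 (0.37), and 2 lower, S100a4 (-0.20) and Pdgfra. Of all tested genes 10.9% lay higher and 11.0% lower at that threshold. The fibroblast markers Fap and Tcf21 lay at or below the array medians in both groups, at 1.94 and 4.48 in wild type cells. Of 31 markers of 6 other cell types, 20 had both group means at or below the highest array median, among them Epcam at 3.14 and 2.96, Pecam1 at 3.74 in both groups and Ptprc at 2.88 and 2.92. The other 11 had a mean above it, the brightest being Acta1 at 6.11 and 5.85 and Krt8 at 5.91 and 5.80. Chondrocyte markers were not among the 31. Of these Sox9 was brighter, at 8.35 and 7.69 in wild type and 8KR cells, and fell, as described with Col11a1 below. Of the tested markers of epithelial, immune, endothelial, osteoblast, skeletal muscle and adipocyte cells, none passed the test, against 5.39% of all genes. At an unadjusted p under 0.05 from limma 1 lay higher in 8KR cells and 4 lower, against 10.9% and 11.0% of all genes. The muscle gene Des (-0.74) and the adipocyte gene Fabp4 (-0.68) lay farthest from 0. The part of these markers in the results on collagens was not tested.

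Among the collagens 5 genes fell in 8KR cells, none rose and 39 did not pass, at an adjusted p under 0.05 from limma. The 5 were the FACIT gene Col12a1, the type VI genes Col6a1 and Col6a2, and the fibrillar genes Col11a1 and Col3a1. They made up 11.4% of the collagen genes, whereas 5.39% of all tested genes passed, 3.06% lower and 2.33% higher in 8KR cells. The collagens were chosen with earlier results of these data known, so these shares are a description. At an unadjusted p under 0.05 from limma, 7 collagens were lower and 1 was higher, or 18.2% in both directions against 21.8% of all tested genes. By direction, 15.9% of the collagens were lower, against 11.0% of all genes, and 2.27% were higher, against 10.9%. In 10 collagens (22.7%) the arrays of the groups did not overlap, against 29.7% of all genes. The 8KR arrays all lay below in 9 of the 44 collagens, against 14.7% of all genes, and all above in 1 of the 44, against 15.0%. The median log2 difference of the 44 genes was -0.06, against 0.01 over all genes, and 30 of them (68.2%) had a difference below 0, against 48.2% of all genes. Of the 39 that did not pass, 32 had a 95% confidence interval within 0.5 log2 units of 0, and all 39 had one within 1 unit. The members nearest the threshold were Col3a1, with an adjusted p of 0.0364 from limma, and Col1a1, with 0.0585.

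**Figure D1:**
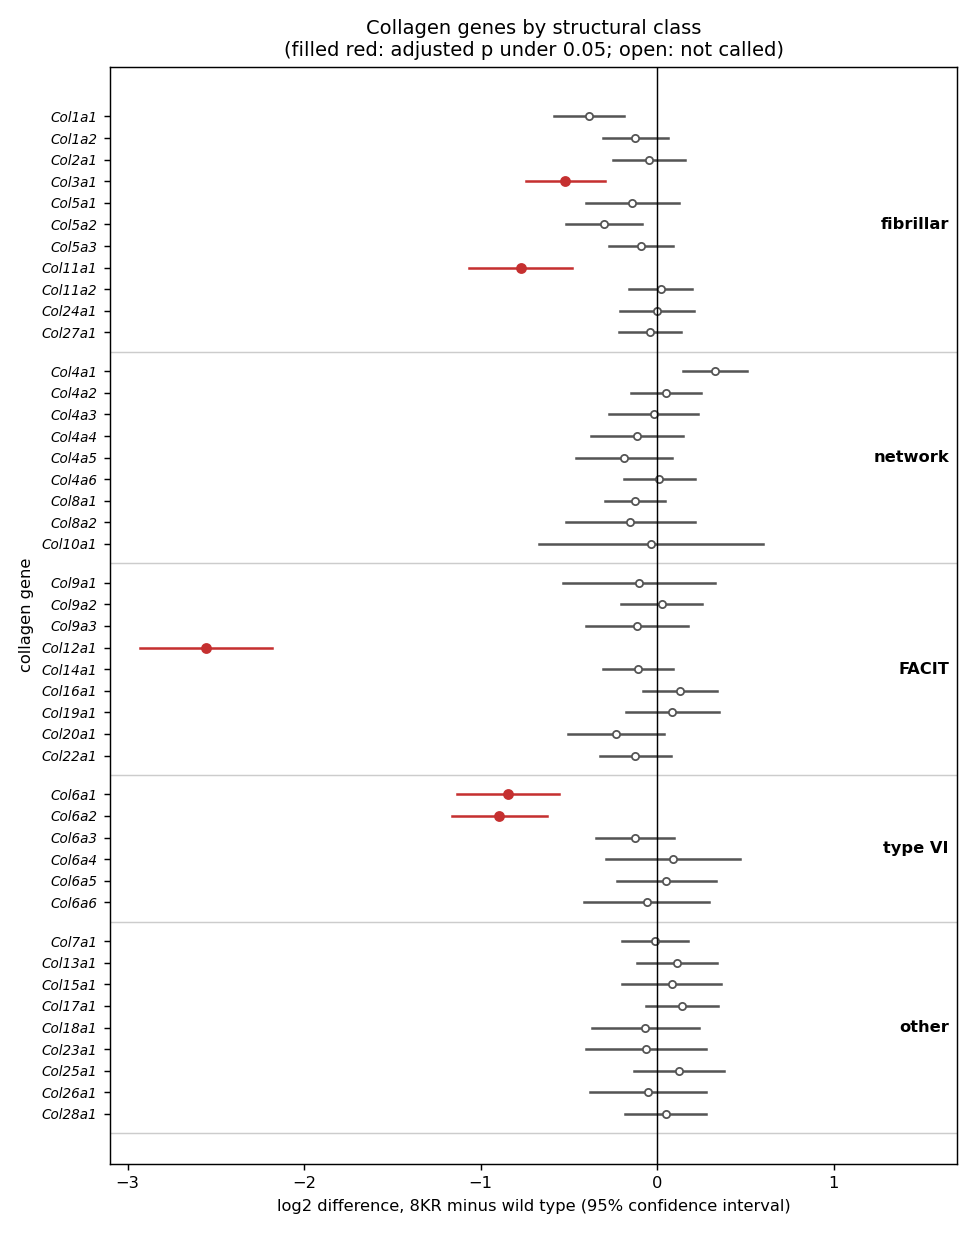
Log2 difference between 8KR and wild type cells (horizontal axis) for each of the 44 collagen genes (vertical axis, grouped by structural class), with the 95% confidence interval from limma as a line. Filled red points mark the 5 genes that passed, with Col12a1 at -2.56 far to the left of the others, and open points mark the 39 that did not.

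Start-site sequence was read from RefSeq (GRCm38.p6) in windows of 300 bases, 250 before and 50 after the annotated start of transcription. Windows were found for 35 of the 44 collagen genes, 38 windows in all, and Col12a1 was not among them. The following are shown because they belong to the other 4 genes that fell and to Col4a1 and Col4a2, neighbours that face away from each other and of which neither passed. Each is read 5′ to 3′ along the gene, and capitals mark, on either strand, the letters TATAAA of the TATA box, the letters CCAAT of NF-Y sites and the letters GGGCGG of Sp1 sites. The windows lie at chr1:45311288-45311587 (plus strand) for Col3a1, chr3:114030290-114030589 (plus) for Col11a1 and chr10:76725995-76726294 (minus) for Col6a1. Those of Col6a2 lie at chr10:76623355-76623654 and, for a second start, chr10:76623581-76623880 (both minus), and those of Col4a1 and Col4a2 at chr8:11312777-11313076 (minus) and chr8:11312555-11312854 (plus).
Col3a1: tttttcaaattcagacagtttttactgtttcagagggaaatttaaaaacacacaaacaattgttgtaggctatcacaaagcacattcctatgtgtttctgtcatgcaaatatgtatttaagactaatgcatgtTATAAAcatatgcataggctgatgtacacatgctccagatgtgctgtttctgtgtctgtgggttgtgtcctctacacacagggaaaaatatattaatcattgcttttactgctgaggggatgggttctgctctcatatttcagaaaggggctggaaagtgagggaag
Col11a1: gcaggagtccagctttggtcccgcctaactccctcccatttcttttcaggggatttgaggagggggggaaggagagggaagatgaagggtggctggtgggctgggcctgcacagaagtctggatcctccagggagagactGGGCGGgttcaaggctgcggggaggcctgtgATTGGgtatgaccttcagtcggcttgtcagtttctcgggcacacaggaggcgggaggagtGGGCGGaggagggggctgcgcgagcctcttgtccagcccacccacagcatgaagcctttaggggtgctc
Col6a1: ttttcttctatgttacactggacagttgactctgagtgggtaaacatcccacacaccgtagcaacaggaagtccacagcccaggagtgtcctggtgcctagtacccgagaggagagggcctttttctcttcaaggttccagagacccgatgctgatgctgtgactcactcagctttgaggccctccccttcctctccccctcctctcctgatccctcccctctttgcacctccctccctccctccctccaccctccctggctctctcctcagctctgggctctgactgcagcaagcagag
Col6a2, first window: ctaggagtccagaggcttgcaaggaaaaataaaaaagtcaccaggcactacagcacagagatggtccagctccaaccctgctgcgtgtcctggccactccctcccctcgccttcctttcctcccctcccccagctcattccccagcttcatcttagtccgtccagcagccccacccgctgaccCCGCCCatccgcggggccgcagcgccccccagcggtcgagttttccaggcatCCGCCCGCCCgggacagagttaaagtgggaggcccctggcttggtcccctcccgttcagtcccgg
Col6a2, second window: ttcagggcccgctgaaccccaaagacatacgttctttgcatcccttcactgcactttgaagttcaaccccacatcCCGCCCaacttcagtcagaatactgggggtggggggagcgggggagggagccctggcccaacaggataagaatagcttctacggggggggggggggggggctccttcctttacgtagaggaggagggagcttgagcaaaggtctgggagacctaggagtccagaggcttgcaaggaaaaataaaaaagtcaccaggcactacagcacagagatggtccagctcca
Col4a1: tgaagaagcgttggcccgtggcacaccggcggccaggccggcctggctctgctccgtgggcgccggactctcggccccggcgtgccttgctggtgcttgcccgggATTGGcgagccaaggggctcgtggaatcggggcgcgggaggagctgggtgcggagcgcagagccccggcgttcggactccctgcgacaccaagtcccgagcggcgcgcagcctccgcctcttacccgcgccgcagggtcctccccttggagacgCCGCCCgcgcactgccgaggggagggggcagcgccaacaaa
Col4a2: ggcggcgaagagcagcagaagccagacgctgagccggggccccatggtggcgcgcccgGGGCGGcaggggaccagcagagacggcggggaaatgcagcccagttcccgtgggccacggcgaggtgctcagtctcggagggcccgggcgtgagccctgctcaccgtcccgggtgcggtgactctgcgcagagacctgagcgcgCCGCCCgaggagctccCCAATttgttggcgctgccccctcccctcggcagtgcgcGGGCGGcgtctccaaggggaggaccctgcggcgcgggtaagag

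No 1 of the 3 motifs stood in the windows of all 4 genes that fell. Col3a1 held TATAAA, starting 117 bases before the start site, and no CpG. Col11a1 held GGGCGG at 110 and 19 bases before the start site and a reversed CCAAT at 79 bases. Col6a2 held a reversed GGGCGG in both of its windows, and Col6a1, its neighbour, held none of the 3. Over the 38 collagen windows, GGGCGG stood in 23 (60.5%), CCAAT in 13 (34.2%) and TATAAA in 5 (13.2%). In all 32851 windows of the table the shares were 35.7%, 37.4% and 13.6%. Collagen windows had a median of 11.5 CpG, against 7 in all windows, and the windows of genes that fell had 0 to 16. A match to these letters is a description of the sequence and not a binding site.

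Col12a1 showed the largest difference of any collagen gene. Its protein, the chain of type XII collagen, is a FACIT that binds along type I fibrils in tendon, ligament and other loaded tissue. In wild type cells it read 7.66, 7.37 and 7.42 on the log2 scale, and in 8KR cells 4.97, 5.15 and 4.66. Every 8KR array lay far below every wild type array. In total RNA of whole cultures, fewer cells expressing a gene and less RNA per cell cannot be told apart, here and below. The difference was -2.56 on the log2 scale (standard error 0.15, 95% confidence interval -2.93 to -2.18, adjusted p = 0.00180 from limma). Intensity in 8KR cells was thus 17.0% of that in wild type cells (95% confidence interval 13.2% to 22.0%), or 5.88-fold lower. The 8KR mean of 4.93 lay not far above the array medians of 4.49 to 4.54, so this ratio rests on dim values in 8KR cells. Col12a1 passed in each of the 6 fits that left out 1 array, with adjusted p of 0.00714 to 0.0166 from limma, and was the only collagen to do so.

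The other 8 FACIT genes did not pass. Col9a1, Col9a2 and Col9a3 encode the chains of type IX collagen, which coats the type II fibrils of cartilage, and had log2 differences of -0.10, 0.03 and -0.11. Col14a1, whose product also binds type I fibrils and is a close relative of type XII, had -0.11 (95% confidence interval -0.31 to 0.09), with means of 4.21 and 4.10 in wild type and 8KR cells, both below the median of every array. Col16a1, made by fibroblasts and smooth muscle cells, had 0.13, and Col19a1 and Col22a1 had 0.09 and -0.12. Col20a1 had -0.23 (95% confidence interval -0.51 to 0.04), and the arrays of the groups overlapped.

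Of the type VI genes, Col6a1 and Col6a2 fell and Col6a3 did not pass. The α1, α2 and α3 chains that they encode assemble into one heterotrimer. Col6a1 read 8.11, 7.79 and 7.87 in wild type cells and 7.22, 7.04 and 6.97 in 8KR cells. Every 8KR array lay below every wild type array, and the difference was -0.84 (standard error 0.12, adjusted p = 0.0200 from limma). Col6a2 read 7.62, 7.44 and 7.57 in wild type cells and 6.50, 6.62 and 6.83 in 8KR cells, again without overlap. Its difference was -0.89 (standard error 0.11, adjusted p = 0.0144 from limma), so the 8KR intensity was 53.8% of wild type (95% confidence interval 44.6% to 64.8%). Col6a3 read 8.15, 8.05 and 7.91 in wild type cells and 7.98, 7.87 and 7.88 in 8KR cells. These arrays overlapped, and the difference was -0.13 (95% confidence interval -0.35 to 0.09). Col6a4, Col6a5 and Col6a6, which encode chains related to α3, had log2 differences of 0.09, 0.05 and -0.06. Left out 1 at a time, the arrays left Col6a1 with adjusted p of 0.0504 to 0.0799 from limma and no call. Col6a2 passed without wild type replicate 2 (adjusted p = 0.0462 from limma) and without 8KR replicate 3 (0.0320), and had up to 0.0629 without any other array.

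Of the 11 fibrillar collagens 2 fell, and 10 (90.9%) had a difference below 0, against 48.2% of all genes. Those of Col24a1, Col27a1 and Col2a1 lay near 0, at -0.00309, -0.04 and -0.05. Col11a1 encodes a chain of type XI collagen, which sits inside fibrils and limits their width. It read 5.46, 5.36 and 5.37 in wild type cells and 4.62, 4.42 and 4.83 in 8KR cells, without overlap. The log2 difference was -0.77 (standard error 0.12, adjusted p = 0.0258 from limma), or 58.5% of the wild type intensity (95% confidence interval 47.8% to 71.5%). The 8KR mean of 4.62 lay near the array medians of 4.49 to 4.54, so this ratio comes from dim values. Col11a2, the gene of another chain of type XI, read 5.26, 5.28 and 5.37 and then 5.29, 5.35 and 5.33, a difference of 0.02 (95% confidence interval -0.16 to 0.20). Sox9, a transcription factor of cartilage that activates type II and type XI collagen genes, was in the list of chondrocyte markers and also fell, by 0.66 on the log2 scale (adjusted p = 0.0102 from limma). It was the only 1 of 6 tested chondrocyte markers to pass, with Acan at 3.56 and 3.38 in wild type and 8KR cells, and its part in the difference of Col11a1 was not tested. Col2a1, the main collagen of cartilage, had a difference of -0.05.

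Col3a1 encodes type III collagen, which forms fibrils together with type I in skin and vessels. Its log2 intensities were 7.75, 7.63 and 7.62 in wild type cells and 7.03, 7.26 and 7.14 in 8KR cells. The groups did not overlap, and the difference was -0.52 (standard error 0.09, adjusted p = 0.0364 from limma), or 69.7% of wild type intensity. No call remained when any 1 array was left out (adjusted p of 0.0731 to 0.112 from limma), and with no filter on low values the adjusted p was 0.0502. Col11a1 passed without 8KR replicate 3 (adjusted p = 0.0389 from limma) and had 0.0653 to 0.0934 without any other array.

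The genes of type I collagen, the bulk of the matrix that fibroblasts make, did not pass. Col1a1, for the α1 chain, read 9.68, 9.55 and 9.66 in wild type cells and 9.31, 9.16 and 9.27 in 8KR cells. No 8KR array reached the wild type range, and the difference of -0.39 had an unadjusted p of 0.00297 and an adjusted p of 0.0585 from limma. It passed, with an adjusted p of 0.0115 to 0.0294, when genes with a group mean of 5.0 or less were left out, when limma's variance followed intensity, and over probe sets with a single symbol. Col1a2, for the α2 chain, read 10.40, 10.27 and 10.31 and then 10.24, 10.22 and 10.15. Its 8KR arrays also lay below its wild type arrays, by a smaller margin, with a difference of -0.13 (95% confidence interval -0.31 to 0.06). Among the genes of type V collagen, which starts fibrils of type I, Col5a2 read 7.71, 7.84 and 7.64 and then 7.34, 7.44 and 7.49 without overlap. Its difference of -0.30 had an unadjusted p of 0.0136 and an adjusted p of 0.128 from limma. Col5a1 and Col5a3 had differences of -0.14 and -0.09, and the lesser known Col24a1 and Col27a1 had -0.00309 and -0.04.

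**Figure D2:**
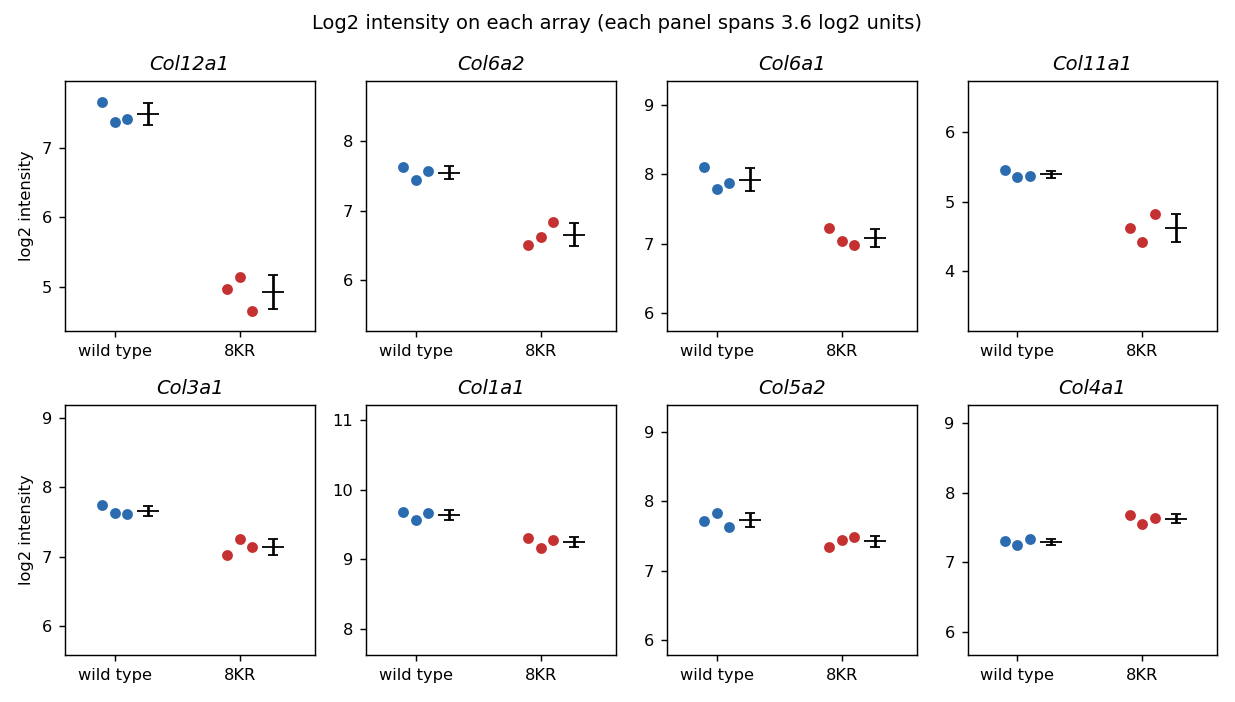
Log2 intensity (vertical axis) of each array, wild type in blue and 8KR in red (3 each), for the 8 collagen genes with an unadjusted p under 0.05 from limma, with the mean and SD of each group in black. Col12a1 fell by 2.56 on the log2 scale, from a mean of 7.48 to 4.93, and Col4a1 is the gene whose 8KR arrays lie above its wild type arrays.

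No network collagen passed. Col4a1 and Col4a2 encode the α1 and α2 chains of type IV, which assemble into the common heterotrimer of basement membranes. Col4a1 read 7.31, 7.25 and 7.34 in wild type cells and 7.68, 7.56 and 7.64 in 8KR cells. All 8KR arrays lay higher, and the difference of 0.33 had an unadjusted p of 0.00446 and an adjusted p of 0.0703 from limma. It passed, with adjusted p of 0.0254 to 0.0448, under the same 3 alternatives as Col1a1. Col4a2 read 6.45, 6.28 and 6.44 and then 6.47, 6.42 and 6.43, with overlap and a difference of 0.05 (95% confidence interval -0.15 to 0.25). In the annotation their start sites lie 21 bases apart on opposite strands, and their windows, printed above, share 78 bases. The 4 remaining type IV genes had differences of -0.02 (Col4a3), -0.11 (Col4a4), -0.19 (Col4a5) and 0.01 (Col4a6). The products of Col8a1 and Col8a2 form the lattice under corneal and vascular endothelium, and the genes had -0.13 and -0.15. Col10a1, a gene of growth plate cartilage, had -0.03 with the widest spread of any collagen (SD of 0.45 in wild type cells, n = 3), so that its 95% confidence interval ran from -0.67 to 0.60.

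The 9 other collagens did not pass, and all had overlapping groups. Col7a1, whose product anchors the epidermis to the dermis, had a log2 difference of -0.01. Col13a1, Col17a1, Col23a1 and Col25a1 encode collagens that span the cell membrane and had 0.11, 0.14, -0.06 and 0.12. Col15a1 and Col18a1 encode the collagens of basement membrane zones that carry endostatin-like fragments, and had 0.08 and -0.07. Col26a1 and Col28a1 had -0.05 and 0.05. In this class 5 differences lay above 0 and 4 below, with a median of 0.05. Medians were -0.13 for the fibrillar, -0.03 for the network, -0.11 for the FACIT and -0.09 for the type VI genes, and differences between classes were not tested.

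Chains of one protein were set against each other in 13 pairs, chosen after the values had been seen. On each array the log2 intensity of one chain was subtracted from that of the other, and this within-array value was compared between groups with a two-sided exact permutation test. With 3 arrays against 3 the smallest p this test can give is 0.1, so no pair could pass. The groups did not overlap in 6 of the 13 pairs, of which 2 share Col6a3. Over all tested genes the groups did not overlap in 29.7% of single genes, and no such share was computed for pairs, so the count of 6 is a description. The mean of Col11a1 relative to Col11a2 differed by -0.79 between the groups, with within-array values of -0.00336 to 0.20 in wild type cells and -0.93 to -0.51 in 8KR cells. Both genes were dim, with Col11a2 at means of 5.30 and 5.32 in wild type and 8KR cells, below the epithelial marker Krt8 (5.91 and 5.80). For Col6a1 and Col6a2 relative to Col6a3 the differences between the groups were -0.72 and -0.77, and for Col6a1 relative to Col6a2 0.05 (exact p = 0.8). Smaller values without overlap were those of Col1a1 relative to Col1a2 (-0.26), Col4a1 relative to Col4a2 (0.28) and Col4a5 relative to Col4a6 (-0.20). Each of these 6 pairs had an exact p of 0.1 and a Benjamini-Hochberg adjusted p of 0.217 over the 13.

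**Figure D3:**
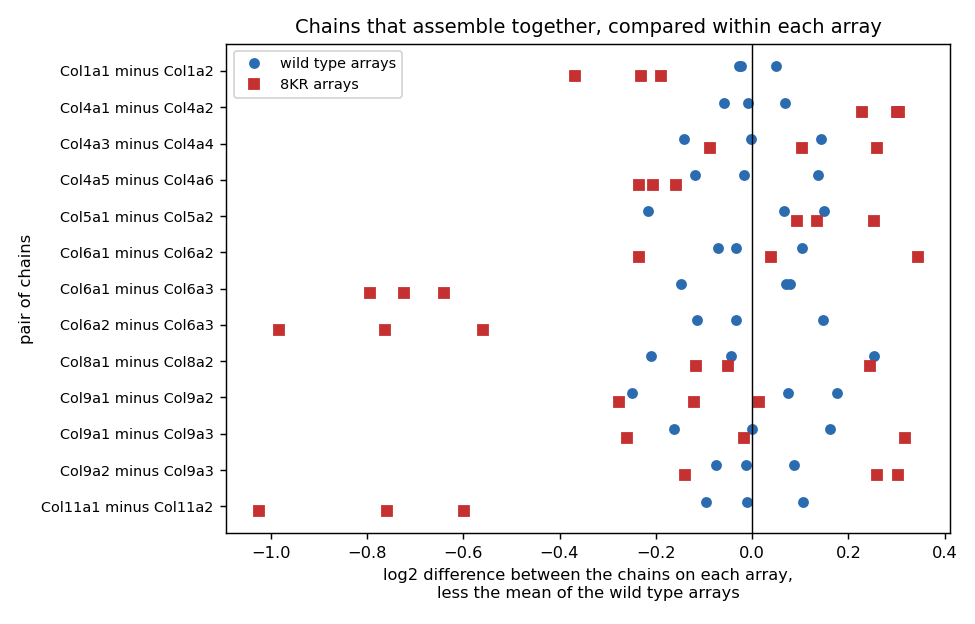
Within-array log2 difference between paired chains (horizontal axis), less the mean of the wild type arrays, for 13 pairs (vertical axis), with blue circles for the 3 wild type and red squares for the 3 8KR arrays. The red squares lie clear of the blue circles for 6 pairs, most widely for Col11a1 minus Col11a2, both dim genes, and are mixed with them for Col6a1 minus Col6a2.

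The genes beside the collagens that fell were examined next, as the 3 tested genes on each side in the chromosome order of GRCm38.p6. Col6a1 and Col6a2 are adjacent on chromosome 10. Around Col6a1, Col6a2 was called and the other 5 genes were not, with log2 differences of -0.02 to 0.34 that included Pcbp3 at 0.34 and Ftcd at 0.02. Beside Col12a1 on chromosome 9, Tmem30a, which encodes a subunit of lipid flippases, also fell (-0.60), and Cox7a2, between them, had -0.30 without passing. Cd109, on the other side, had -0.39 without passing, and no neighbour reached the size of Col12a1. Next to Col11a1 on chromosome 3, S1pr1, a receptor for sphingosine 1-phosphate, fell by 0.70 on the log2 scale and Rnpc3, on the other side, had 0.46 without passing. Col3a1 and Col5a2 are adjacent on chromosome 1 and both had differences below 0, between Gulp1 (0.80) and Wdr75 (0.40), which rose. Slc40a1, beyond Wdr75, had 0.88 without passing (adjusted p = 0.0667 from limma). The adjusted p from limma was 0.0377 for Gulp1, 0.0462 for Wdr75 and 0.0433 for S1pr1, all near the threshold, and 0.0148 for Tmem30a. How the calls of neighbours outside the collagens held with an array left out was not examined.

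**Figure D4:**
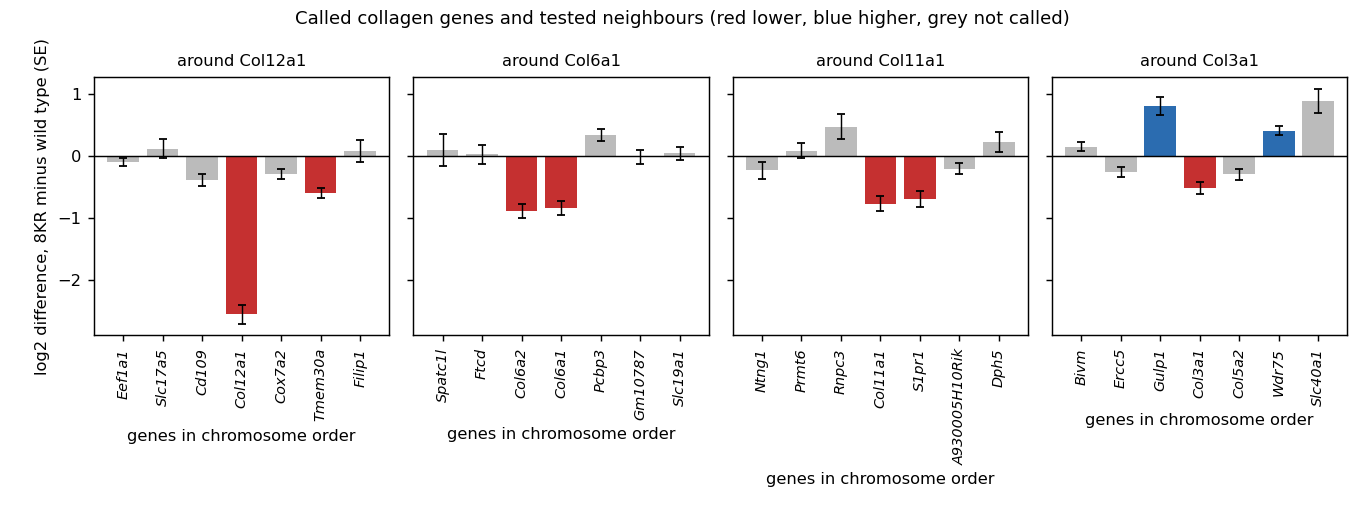
Log2 difference between 8KR and wild type cells (vertical axis, bars with the standard error) of collagen genes that fell and of the 3 tested genes on each side, in chromosome order (horizontal axis). Red bars passed and were lower, blue bars passed and were higher, and grey bars did not pass, and Col12a1 at -2.56 exceeds every neighbour shown.

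Genes that modify, export, cross-link, bind or degrade collagen were counted in 5 lists. Of 64 that were tested, 3 rose, 5 fell and 56 did not pass, so 12.5% were called against 5.39% of all genes. The lists were chosen with earlier results of these data known and were not matched to all genes in intensity, so these shares are a description. Among 22 genes of chain modification and folding, 3 fell. They were P4ha3 (-1.17, adjusted p = 0.0257 from limma) and P4ha1 (-0.59), catalytic subunits of prolyl 4-hydroxylase, which stabilizes the triple helix, and Plod2 (-1.11), a lysyl hydroxylase. The 8KR mean of P4ha3, 4.62, lay near the array medians of 4.49 to 4.54. Creb3l1, a transcription factor that activates type I collagen genes in bone, rose by 0.72 (adjusted p = 0.0132 from limma). Left out 1 at a time, the arrays left P4ha1 with adjusted p of 0.0652 to 0.111 from limma and no call. P4ha3 passed without 8KR replicate 3 alone (adjusted p = 0.0317 from limma), Creb3l1 without wild type replicate 1 or 8KR replicate 2, and Plod2 in all 6 such fits. The chaperone genes Serpinh1 and P4hb, which act on all procollagens, had -0.21 and -0.19 without passing. Of 18 export and processing genes, Bmp1, the proteinase that removes the C-propeptide of fibrillar procollagens, rose and the other 17 did not pass. It read 6.56, 6.47 and 6.54 in wild type cells and 7.43, 7.23 and 7.38 in 8KR cells, a difference of 0.82 (standard error 0.08, adjusted p = 0.00810 from limma).

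Of 5 cross-linking genes, Loxl1, a lysyl oxidase of elastic fibres, fell by 0.97 on the log2 scale, and Lox, the main lysyl oxidase of collagen, had -0.29 (adjusted p = 0.0871 from limma). Among 14 receptor genes, Itga11 fell and 13 did not pass. Its product is the α chain of the integrin through which fibroblasts bind fibrillar collagen. It read 6.39, 6.03 and 6.34 in wild type cells and 4.33, 4.31 and 4.16 in 8KR cells. The 8KR values lay below the lowest array median, 4.49, and the Itga11 difference was -1.99 (standard error 0.12, adjusted p = 0.00192 from limma). Itgb1, its partner chain, had 0.11 and the collagen receptor tyrosine kinase gene Ddr2 had 0.01, and Cspg4, whose product binds type VI collagen, had -0.64 (adjusted p = 0.0617 from limma). Of 5 proteases that were tested, Mmp14, a membrane collagenase, rose by 0.60 on the log2 scale (adjusted p = 0.0178 from limma), from a mean of 9.16 to 9.77. With 1 array left out it passed without wild type replicate 1 alone (adjusted p = 0.0465 from limma) and had up to 0.0732 without any other, whereas Bmp1, Loxl1 and Itga11 passed in all 6 such fits. Of 20 genes of other proteins with a collagen-like stretch, such as the complement genes C1qa and C1qb, none passed, against 5.39% of all genes. At an unadjusted p under 0.05 from limma 3 of the 20 lay lower, against 11.0% of all genes.

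**Figure D5:**
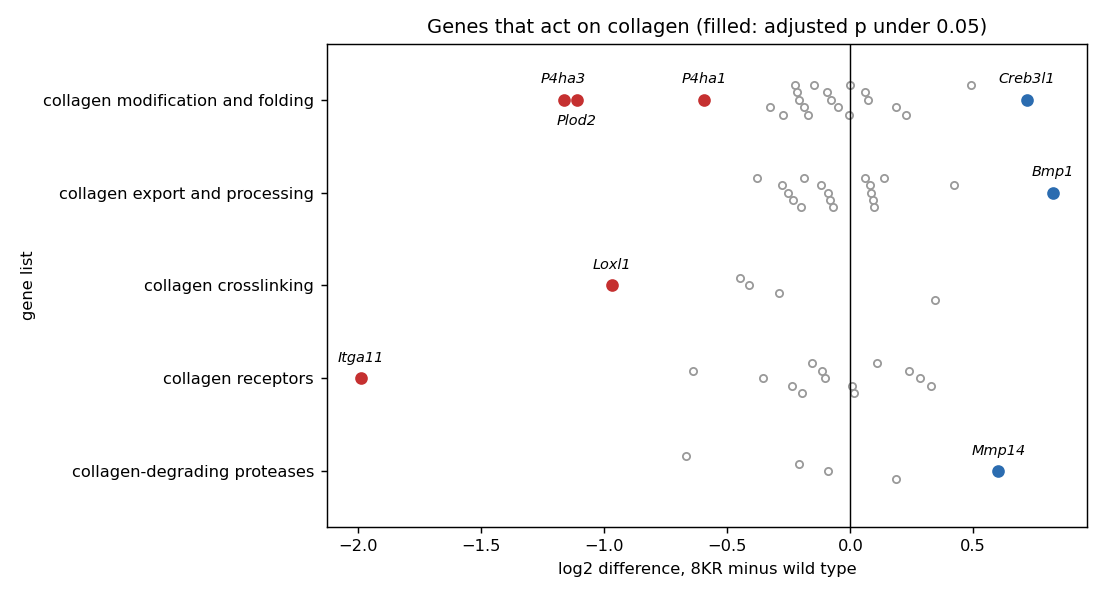
Log2 difference between 8KR and wild type cells (horizontal axis) of the 64 tested genes in 5 lists of genes that act on collagen (vertical axis), 1 point per gene. Filled points passed, red lower and blue higher in 8KR cells, and Itga11 at -1.99 and Bmp1 at 0.82 are the outermost, whereas open points did not pass.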

How the data were processed

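Total RNA of NIH/3T3 cells was measured on 6 Affymetrix Mouse Gene 1.0 ST arrays, 3 per group by the sample titles. The deposited values are log2 intensities, normalized by the authors. The submitters' processing notes list Affymetrix Power Tools 1.12.0. The method of normalization is not given in the sources read. Following the methods, 7014 of 35557 probe sets with no group mean above 3.0 were removed, and 8KR was compared with wild type over the other 28543 in limma 3.58.1 (R 4.3.3; lmFit, eBayes, no covariates), with Benjamini-Hochberg adjustment over all of them and a call at an adjusted p under 0.05. The fit was tested on simulated data. Arrays give no read counts, and their number limits the precision. Symbols came from the platform annotation (21789 probe sets with 1 symbol, 1621 with several, 12147 with none), updated through the RefSeq gene table of GRCm38.p6. Only Col6a5 and Col6a6 had 2 probe sets each. The members, classes and lists were chosen with earlier results of these data known. Every member was named, with the value on each array for those with an unadjusted p under 0.05 and for Col1a1, Col1a2 and Col3a1, and from other lists the called genes were named. Array values of Col6a3, Col11a2 and Col4a2, the chain pairs and the uncalled genes named from other lists were chosen after their values were seen. Start-site windows came from RefSeq. Alternatives changed the filter, normalization, variance model, array weights, replicate block, probe sets and arrays included. Figures were drawn with matplotlib 3.10.9.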

Additional observations from a re-analysis of the deposited data

How the results depend on the processing

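The number of collagen genes called, 5, was 4 to 7 under the alternatives other than the replicate block and leaving out an array. Col1a1 (lower) and Col4a1 (higher) were the additional calls with a group mean above 5.0, with limma's variance following intensity and when single-symbol probe sets alone were tested. Under each of these 3 settings 1 network collagen was called, as the 1 collagen called higher in 8KR. Above 5.0 the median log2 difference of the 29 collagens still tested was -0.11, and export and processing, cross-linking and receptor genes each had 2 calls. With the trend cross-linking and receptor genes had 2 calls each, and over single-symbol probe sets receptor genes had 2. Without a filter 1 fibrillar collagen was called. Over all probe sets the counts called were 1245 by the fit as reported, 2295 above 5.0, 2200 with the trend and 77 with the replicate block.

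With the replicate number as a block, 1 collagen was called, Col12a1 (adjusted p = 0.0334 from limma), with 1 lower, 0 fibrillar and 0 type VI. Genes of modification and folding, export and processing, cross-linking and degradation had 0 calls under the block, and receptor genes 1. Arrays with the same number did not deviate together (correlations of their deviations from the group means of -0.01, 0.01 and 0.00, and 2 of 6 arrays correlated best with their own number). The sources used here do not say whether arrays of the same number were cultured or processed together, and these correlations cannot settle it.

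Leaving out each array in turn gave 1 to 3 collagen calls, 1 to 3 lower and 0 higher (0 to 1 fibrillar, 0 network, 1 FACIT, 0 to 1 type VI and 0 other). The median ran from -0.07 to -0.05. Modification and folding had 1 to 2 calls, export and processing 1, cross-linking 1, receptors 1 and proteases 0 to 1. A fit without 1 array also has fewer samples. The 5 collagens that passed kept their direction in every alternative, and 17 of the others changed sign in at least 1 without passing.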
